A study of Mus musculus with 17 samples.

Results

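The genes described here are 9 mouse MHC class I heavy chain genes, H2-K1, H2-D1, H2-Q1, H2-Q2, H2-Q4, H2-Q6, H2-Q7, H2-Q10 and H2-T23, together with B2m, which encodes the light chain beta-2-microglobulin. They were chosen by symbol through the Ensembl identifier of each row, and all 10 were found among the 23461 genes of the count table. All 10 also passed the filter on low counts, which left 13721 genes for testing.

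RNA was sequenced in 17 samples of hepatocytes, sorted by flow cytometry, and all mice were males of 2 to 3 months. The knockout lacked Yap and Taz, the transcriptional coactivators of the Hippo pathway, which are encoded by Yap1 and Wwtr1. Carbon tetrachloride (CCl4), a liver toxicant, was given at 1 ug/g in 7 doses spaced 3 days apart, and hepatocytes were collected 3 days after the last dose. The groups were Yap/Taz KO with CCl4 (KO CCl4, n = 3), Yap/Taz KO untreated (KO untreated, n = 4), wild type with CCl4 (WT CCl4, n = 5) and wild type untreated (WT untreated, n = 5). The labels give no strain, MHC haplotype, Cre driver or floxed allele, and do not say that each sample was a separate animal, so p-values measure only the spread between these samples.

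MHC class I molecules carry peptides from proteins made inside the cell to its surface, where CD8 T cells read them. A heavy chain folds with beta-2-microglobulin and a peptide in the endoplasmic reticulum, where the TAP transporter delivers peptides and tapasin, calreticulin and ERp57 hold the empty molecule. H2-K1 and H2-D1 encode the classical molecules of mice, whereas the Q and T genes encode nonclassical ones: H2-Q10 a secreted molecule made mainly by the liver, H2-Q7 and H2-Q6 members of the Qa-2 family, and H2-T23 the Qa-1 molecule that presents leader peptides of other class I molecules to NKG2A receptors. Interferons, NLRC5 and NF-kappa B raise transcription of these genes through elements of their promoters.

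The heavy chain genes lie on chromosome 17 of mm10 within a stretch of 2037 kb. In GENCODE's annotation of that build, H2-K1 is at chr17:33996017-34000347 on the minus strand and H2-D1 at chr17:35262730-35267499 on the plus strand. The Q genes follow on the plus strand within 154.2 kb, with H2-Q1 at chr17:35320405-35325099, H2-Q2 at chr17:35342242-35346762, H2-Q4 at chr17:35379617-35385290, H2-Q6 at chr17:35424850-35430055, H2-Q7 at chr17:35439155-35443773 and H2-Q10 at chr17:35470089-35474563. H2-T23 is at chr17:36029773-36032855 on the minus strand. B2m is on another chromosome, at chr2:122147686-122153083 on the plus strand.

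Promoter sequence from RefSeq (GRCm38.p6) was matched for 9 of the 10 genes, all but H2-Q1, and is shown because several heavy chain promoters hold alike stretches around a kappa B element, which binds NF-kappa B proteins. The stretches of 60 bases upstream of 5 heavy chain genes and B2m are given 5′ to 3′ on the strand of each gene. In the heavy chain genes the capitals mark the closest match to the kappa B element of H2-K1, and then a shared run of 15 bases. In B2m they mark the core of the interferon-stimulated response element, which binds interferon regulatory factors, and then a kappa B match. The stretches are chr17:34000413-34000472 (minus strand) for H2-K1, chr17:35379429-35379488 for H2-Q4, chr17:35424663-35424722 for H2-Q6, chr17:35439008-35439067 for H2-Q7, chr17:35469899-35469958 for H2-Q10 and chr2:122147523-122147582 for B2m.
H2-K1: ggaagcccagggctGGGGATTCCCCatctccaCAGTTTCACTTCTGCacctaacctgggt
H2-Q4: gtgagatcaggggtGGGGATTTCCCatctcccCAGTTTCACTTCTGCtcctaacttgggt
H2-Q6: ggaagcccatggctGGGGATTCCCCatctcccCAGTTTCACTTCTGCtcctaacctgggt
H2-Q7: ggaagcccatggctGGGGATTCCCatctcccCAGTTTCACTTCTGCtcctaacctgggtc
H2-Q10: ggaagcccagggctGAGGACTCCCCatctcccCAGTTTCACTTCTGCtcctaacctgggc
B2m: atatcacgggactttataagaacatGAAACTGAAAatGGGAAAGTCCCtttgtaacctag

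The kappa B element of H2-K1, GGGGATTCCCC, was present unaltered before the RefSeq starts of H2-D1 and H2-Q6, and in 6 of 32851 RefSeq promoters of the same length (0.0183%). Counted from 1 at that element's 5′ end, the closest match carried C8T in H2-Q4, and G2A with T6C in H2-Q10, which had 0 matches to the looser kappa B pattern below. H2-Q7 matched 10 of the 11 letters, was 1 base shorter there and then ran on with the same 7 bases as H2-Q6. The closest matches in H2-Q2 and H2-T23 had 4 substitutions each. The run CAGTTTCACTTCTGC was marked because these heavy chain promoters share it, so its presence in them was not a test. It stood before the RefSeq starts of 6 heavy chain genes, those 5 and H2-D1, and in 7 of all the promoters (0.0213%). The H2-D1 stretch lies inside exons of H2-D1 as GENCODE annotates it, and so does the stretch around the H2-T23 match named next, so neither is upstream of the gene in that annotation. Over the 250 bases before the start, searched on both strands, the interferon-stimulated response element core GAAANNGAAA was found in 2 of the 9 genes, H2-T23 and B2m, against 2.98% of all promoters. The looser kappa B pattern GGGANNNNCC was found in 6 of the 9 and in 17.6% of all promoters, the cAMP response element core TGACG in 5 and 17.8%, CCAAT in 8 and 33.8%, and the gamma-activated site TTCNNNGAA in 0 and 7.02%. GGGANNNNCC also matches within that element, so those counts overlap. A match is a match of letters in these windows only.

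Total counts per sample ran from 11266420 to 24775863, with a median of 14786573. Yap1 was at 0.54 to 1.97 CPM in KO CCl4 and 1.21 to 8.04 CPM in KO untreated libraries, against 42.5 to 64.4 in WT CCl4 and 37.4 to 73.6 in WT untreated ones, so each library matched its genotype label. All 12 hepatocyte markers were detected in all 17 libraries. One KO CCl4 library, replicate 3, stood apart: 16 macrophage markers summed to 5074 CPM there and to 109 and 287 CPM in the other KO CCl4 libraries, against 0.342 to 10.7 in KO untreated, 13.0 to 127 in WT CCl4 and 2.12 to 19.7 in WT untreated libraries. Mitochondrial genes took 34.3% of its counts, and the highest share elsewhere was 30.7%, in WT untreated replicate 5. In bulk samples, fewer cells of a type and less RNA per cell cannot be told apart.

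Per kilobase of annotated exon, B2m was the most abundant of the 10 genes, at a mean of 1532 CPM per kb over the 17 libraries. H2-Q10 followed at 413 CPM per kb, H2-K1 at 352, H2-D1 at 181, H2-T23 at 64.6, H2-Q7 at 17.4, H2-Q4 at 14.6, H2-Q6 at 13.4, H2-Q1 at 1.95 and H2-Q2 at 0.695. The order was the same with the length of the longest coding transcript. Over the 17 libraries H2-K1 (226 to 463 CPM per kb) overlapped both its neighbours in that order, H2-Q10 (317 to 513) and H2-D1 (133 to 279). The ranges also overlapped from each gene to the next from H2-Q7 through H2-Q4, H2-Q6 and H2-Q1 to H2-Q2. H2-D1, H2-T23 and H2-Q7 did not overlap one another. B2m ranged from 809 to 2549 CPM per kb and did not overlap any heavy chain gene. These ranges are per kilobase of exon. By coding transcript the mean of H2-Q10, 902 CPM per kb, lay above the lowest B2m value, so those ranges overlapped.

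Together H2-Q10, H2-K1 and H2-D1 made up most of the class I heavy chain RNA of these hepatocytes. H2-Q10, the liver's secreted heavy chain, took on average 39.1% of the summed CPM per kb of the 9 heavy chain genes, with 34.8% to 44.5% over the libraries. H2-K1 took 33.0% and H2-D1 17.2%, against 6.09% for H2-T23, 1.64% for H2-Q7, 1.38% for H2-Q4, 1.28% for H2-Q6, 0.197% for H2-Q1 and 0.0663% for H2-Q2. With the length of the longest coding transcript several shares moved, to 45.7% for H2-Q10, 11.3% for H2-D1, 2.50% for H2-Q7 and 0.687% for H2-Q6, and that of H2-K1 was 32.1%. In KO CCl4 replicate 3 H2-D1 exceeded H2-K1 per kilobase of exon (279 and 226 CPM per kb), but not by coding transcript, where the highest share of H2-D1 was 19.7% and the lowest of H2-K1 23.6%. The H2-K1 share was 25.4% ± 2.04 in KO CCl4 and 37.2% ± 0.488 in KO untreated libraries (SD, n = 3 and 4). It was 32.5% ± 2.94 in WT CCl4 and 34.9% ± 2.99 in WT untreated libraries (SD, n = 5 each).

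**Figure D1:**
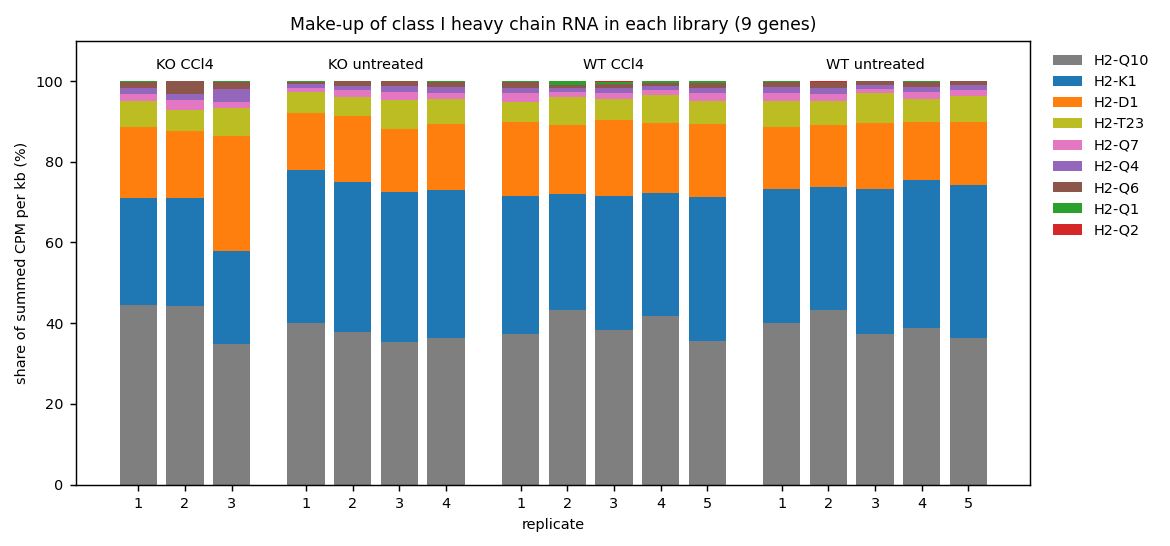
Share of each of the 9 heavy chain genes in their summed CPM per kb of exon (%, vertical axis), with 1 stacked bar for each library, by group and replicate. H2-Q10 and H2-K1 fill most of each bar, and the H2-K1 segment is at most 26.7% in the 3 KO CCl4 libraries, below every other library.

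The summed level of the 9 heavy chain genes was 3228 ± 198 CPM in KO CCl4 and 3949 ± 480 CPM in KO untreated libraries (SD, n = 3 and 4). It was 3316 ± 390 CPM in WT CCl4 and 3935 ± 381 CPM in WT untreated libraries (SD, n = 5 each). B2m relative to the heavy chains, as a ratio of CPM per kb of exon, was 1.20 ± 0.235 in KO CCl4 and 1.56 ± 0.375 in KO untreated libraries. It was 1.48 ± 0.210 in WT CCl4 and 1.44 ± 0.223 in WT untreated libraries. These ratios differed by about the spread within groups. Their size depends on the length used. By coding transcript H2-Q10 and H2-K1 averaged 902 and 639 CPM per kb, while B2m stayed at 1532, so the ratios are lower with that length.

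**Figure D2:**
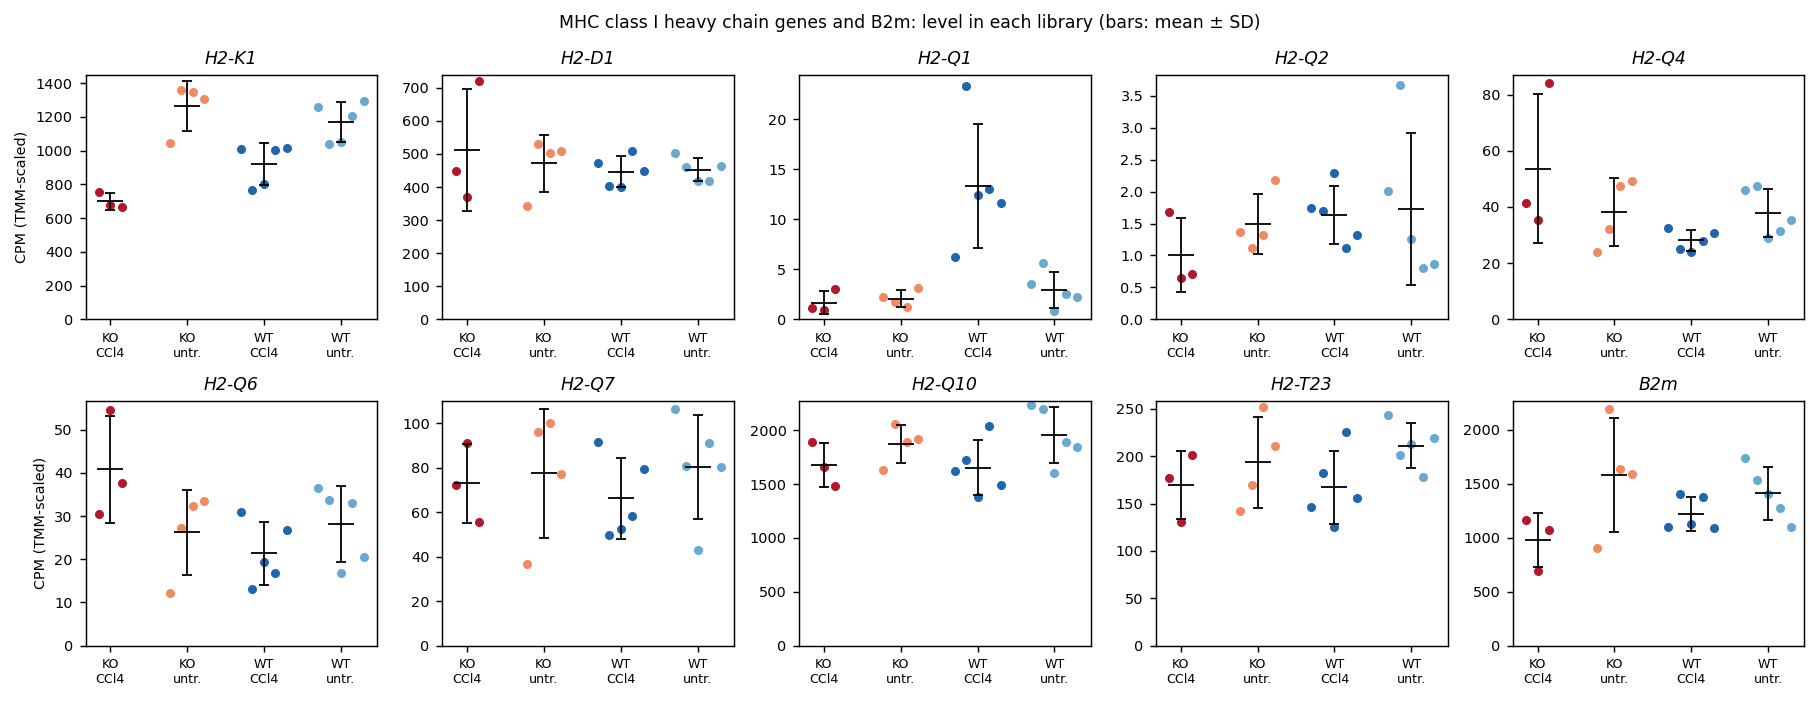
CPM of TMM-scaled libraries (vertical axis, from 0, own scale in each panel) for the 10 genes, with 1 point for each library and bars for the mean ± SD of each group. H2-K1 is lower in the 3 KO CCl4 libraries than in every other library, and H2-Q1 is at 6.23 to 23.3 CPM in the 5 WT CCl4 libraries and at most 5.67 CPM elsewhere.

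The CCl4 comparison within Yap/Taz KO hepatocytes asked how the class I genes stood after repeated injury without Yap and Taz. H2-K1 was the member that fell. It was at 755.6, 677.4 and 663.9 CPM in KO CCl4 libraries, against 1043, 1360, 1348 and 1305 CPM in KO untreated libraries. The groups did not overlap, as held for this 1 member and for 25.2% of all genes. The log2 fold change was -0.85 ± 0.16 (SE), or 0.553-fold with a 95% interval of 0.439 to 0.697, and the adjusted p was 0.00156 by edgeR's quasi-likelihood test with Benjamini-Hochberg (BH) adjustment. Without KO CCl4 replicate 3, the library rich in macrophage markers, it was -0.82 with an adjusted p of 0.00836.

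B2m, the partner of every heavy chain here, was at 1167, 695.5 and 1069 CPM in KO CCl4 libraries, against 905.3, 2192, 1634 and 1587 CPM in KO untreated libraries. The groups overlapped through the lowest KO untreated library, replicate 1. The log2 fold change was -0.69 ± 0.26 with an adjusted p of 0.0717, and it passed the threshold without KO untreated replicate 1 (-0.88, adjusted p 0.0143) or without KO CCl4 replicate 1 (adjusted p 0.0487).

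Of the 10 genes, 1 passed the test in this comparison, H2-K1, beside 19% of all genes tested in either direction and 6.96% lower. The 10 had a median log2 fold change of -0.18, against 0.01 for all genes. H2-Q10 was at 1888, 1660 and 1484 CPM in KO CCl4 libraries, against 1634, 2057, 1893 and 1914 CPM in KO untreated libraries, with a 95% interval of 0.699 to 1.15-fold. H2-D1, the other classical gene, was at 447.1, 370.7 and 720.5 CPM in KO CCl4 libraries, against 342.2, 531.6, 502.4 and 509.8 CPM in KO untreated libraries, with an interval of 0.806 to 1.47-fold. The H2-D1 groups overlapped, and the library rich in macrophage markers held the highest value of H2-D1 and the lowest of H2-K1 in the series. The intervals of the remaining members also spanned no change, from 0.307 to 1.50-fold for H2-Q2 to 0.916 to 2.65-fold for H2-Q6.

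**Figure D3:**
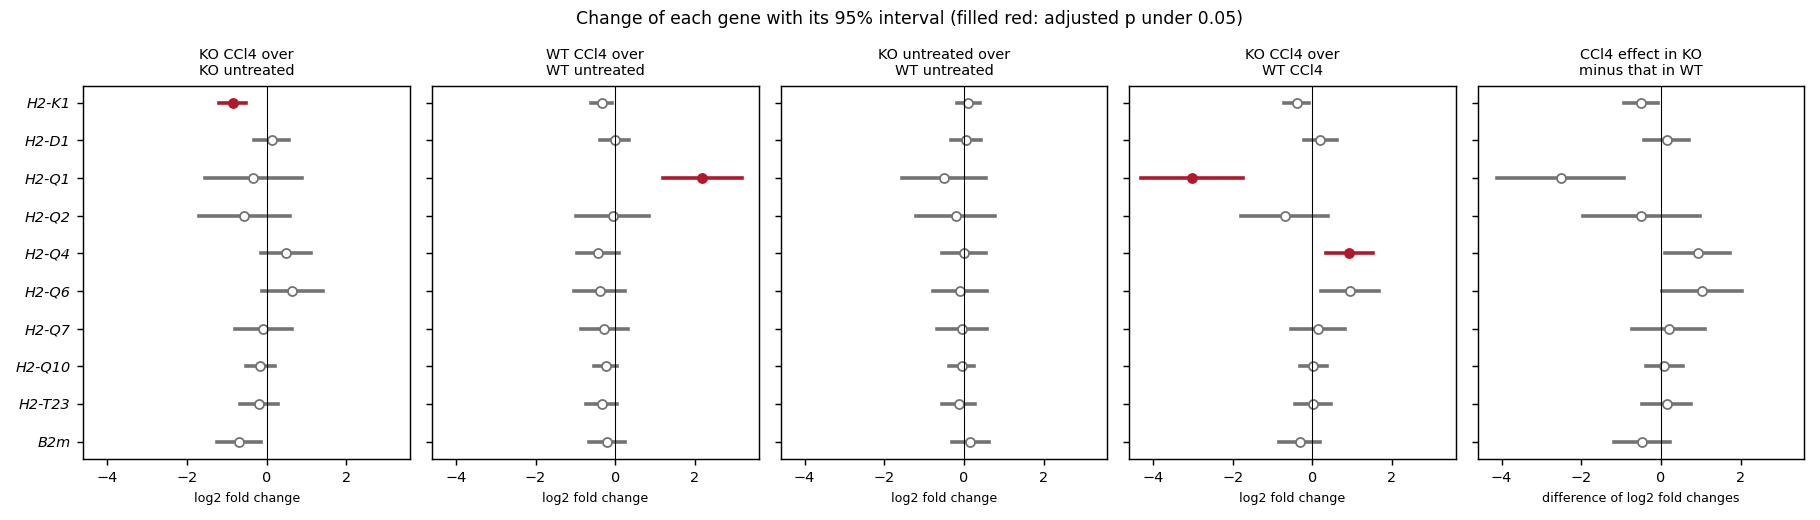
Log2 fold change (horizontal axis) with its 95% interval for each of the 10 genes in 4 comparisons and for the difference of the CCl4 effects between genotypes. Filled red points mark an adjusted p under 0.05: H2-K1 in KO CCl4 against KO untreated, H2-Q1 in WT CCl4 against WT untreated, and H2-Q1 and H2-Q4 in KO CCl4 against WT CCl4.

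In wild-type hepatocytes, where CCl4 was set against no treatment with Yap and Taz present, H2-Q1 was the member that rose. H2-Q1 encodes a nonclassical heavy chain. It had 100, 370, 349, 268 and 301 counts in WT CCl4 libraries, against 35, 68, 13, 34 and 31 counts in WT untreated libraries. In CPM these were 6.23, 23.3, 12.5, 13.1 and 11.7 in WT CCl4, against 3.53, 5.67, 0.82, 2.51 and 2.24 in WT untreated libraries. The groups did not overlap, though WT CCl4 replicate 1 lay close to WT untreated replicate 2. The log2 fold change was 2.18 ± 0.47, or 4.54-fold with a 95% interval of 2.28 to 9.06, and edgeR's adjusted p was 0.0364. The call was lost on leaving out any of 8 of the 10 wild-type libraries, with the highest adjusted p, 0.112, and a log2 fold change of 1.89 without WT CCl4 replicate 2. Some markers of other cell types were also called higher in WT CCl4 than in WT untreated libraries, beside 0.576% of all genes. They were 2 of 12 endothelial genes, Lyve1 (log2 fold change 4.30, adjusted p 0.0215) and Ramp2 (4.21, adjusted p 0.0326). Of 9 stellate and fibroblast genes 1 was called, the collagen gene Col3a1 (3.79, adjusted p 0.0303). Of 16 macrophage and 5 pan-leukocyte markers 0 were called. Endothelial markers summed to 33.9 to 191 CPM in WT CCl4 and 8.87 to 51.5 CPM in WT untreated libraries, and stellate and fibroblast markers to 18.9 to 83.4 CPM in WT CCl4 and 5.09 to 26.5 CPM in WT untreated libraries. Their part in the H2-Q1 values was not tested.

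H2-Q1 was the 1 member of 10 that passed in this comparison, beside 0.853% of all genes tested and 0.576% higher. H2-K1 was at 1010, 767.9, 805.2, 1003 and 1016 CPM in WT CCl4 libraries, against 1257, 1039, 1050, 1205 and 1294 CPM in WT untreated libraries. These groups did not overlap either, as held for 2 of the 10 members and 4.84% of all genes, but the log2 fold change of -0.34 ± 0.13 had an adjusted p of 0.213. With unscaled library totals the median of all genes shifted by 0.39 on the log2 scale in this comparison, and the log2 fold change of H2-K1 was 0.05. B2m was at 1099, 1402, 1129, 1377 and 1091 CPM in WT CCl4 libraries, against 1741, 1532, 1407, 1274 and 1102 CPM in WT untreated libraries, with an interval of 0.636 to 1.17-fold. The 10 members had a median log2 fold change of -0.26, against -0.01 for all genes.

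Without injury, none of the 10 genes passed the test between Yap/Taz KO and wild-type hepatocytes. In KO untreated against WT untreated, 0 of the 10 were called by edgeR's quasi-likelihood test, beside 0.933% of all genes. Before adjustment 0 members had a p under 0.05, beside 8.77% of all genes, and DESeq2 and limma voom also called 0. H2-K1 averaged 1264 ± 149 CPM in KO untreated and 1169 ± 118 CPM in WT untreated libraries, with a 95% interval of 0.886 to 1.32-fold. H2-Q10 averaged 1875 ± 176 and 1951 ± 261 CPM in the same groups, with an interval of 0.774 to 1.19-fold. B2m averaged 1580 ± 527 and 1411 ± 243 CPM, with an interval of 0.809 to 1.55-fold. The widest intervals were those of the low genes, 0.338 to 1.47-fold for H2-Q1 and 0.437 to 1.73-fold for H2-Q2.

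After CCl4, Yap/Taz KO and wild-type hepatocytes differed in H2-Q1 and H2-Q4. H2-Q1 had 19, 25 and 38 counts in KO CCl4 libraries, against 100, 370, 349, 268 and 301 counts in WT CCl4 libraries. It was at 1.14, 0.89 and 2.99 CPM in KO CCl4 libraries, against 6.23 to 23.3 CPM in WT CCl4 libraries, and the groups did not overlap. The log2 fold change was -3.02 ± 0.60, or 0.123-fold with an interval of 0.0509 to 0.297, and edgeR's adjusted p was 0.00452. In KO untreated libraries H2-Q1 was at 2.28, 1.71, 1.21 and 3.10 CPM, which overlapped the KO CCl4 values.

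H2-Q4, a nonclassical Qa gene, was at 41.4, 35.4 and 84.1 CPM in KO CCl4 libraries, against 32.6, 25.0, 24.05, 28.0 and 30.8 CPM in WT CCl4 libraries. The groups did not overlap, and the highest value was again in the library rich in macrophage markers. The log2 fold change was 0.93 ± 0.28 with an adjusted p of 0.0385. Without KO CCl4 replicate 3 it was 0.45 with an adjusted p of 0.398, and the call was also lost without any of the 5 WT CCl4 libraries (adjusted p 0.0501 to 0.0845).

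H2-Q1, lower, and H2-Q4, higher, were the 2 of 10 members that passed, beside 11.8% of all genes (7.62% higher and 4.21% lower). The groups did not overlap for 3 members, those and H2-K1, beside 18.1% of all genes. H2-K1 had a log2 fold change of -0.40 ± 0.15 in KO CCl4 against WT CCl4, with an adjusted p of 0.0987 by edgeR and 0.0466 by DESeq2. H2-Q6, of the Qa-2 family, was at 30.4, 54.5 and 37.6 CPM in KO CCl4 libraries, against 30.9, 13.0, 19.4, 16.8 and 26.7 CPM in WT CCl4 libraries, with a log2 fold change of 0.93 ± 0.34 and an adjusted p of 0.0881. The median over the 10 members was 0.02, against 0.04 for all genes.

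The difference of the CCl4 effects, KO minus WT, was tested as an interaction. No member passed by edgeR's quasi-likelihood test (0 of 10, beside 1.09% of all genes), 4 had an unadjusted p under 0.05, beside 17.1% of all genes, and DESeq2 called 1, H2-Q1. The difference for H2-Q1 was -2.52 ± 0.75 on the log2 scale, with an adjusted p of 0.0952 by edgeR and 0.0247 by DESeq2. Those of H2-K1 (-0.51, adjusted p 0.203), H2-Q4 (0.92, adjusted p 0.226) and H2-Q6 (1.03, adjusted p 0.277) did not pass, so the fall of H2-K1 in KO hepatocytes was not shown to differ from the wild-type change.

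H2-Q7, H2-T23 and H2-Q2 passed no test in any of the 4 comparisons. H2-Q7 was at 72.3, 91.1 and 55.5 CPM in KO CCl4 libraries, against 36.5, 96.3, 100.1 and 77.1 CPM in KO untreated libraries. H2-Q7 was at 91.5, 49.9, 52.4, 58.1 and 79.5 CPM in WT CCl4 libraries, against 106.4, 81.0, 42.9, 91.3 and 80.2 CPM in WT untreated libraries. The groups overlapped in each case. H2-T23, whose product is read by NK cells, was at 177.2, 130.3 and 201.5 CPM in KO CCl4 and 142.0, 169.9, 252.1 and 210.4 CPM in KO untreated libraries. H2-T23 was at 146.5, 182.6, 125.4, 225.2 and 155.9 CPM in WT CCl4 and 243.7, 201.4, 212.6, 178.4 and 219.2 CPM in WT untreated libraries. H2-Q2 stayed between 0.64 and 3.67 CPM in all 17 libraries.

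H2-D1 and H2-Q10 were not called in wild-type hepatocytes after CCl4. H2-D1 was at 472.8, 403.8, 400.7, 507.9 and 449.6 CPM in WT CCl4, against 502.8, 460.4, 418.3, 418.4 and 462.4 CPM in WT untreated libraries. H2-Q10 was at 1622, 1724, 1378, 2041 and 1491 CPM in WT CCl4, against 2229, 2193, 1605, 1888 and 1842 CPM in WT untreated libraries. Both genes overlapped between the groups, and their CVs within the 2 wild-type groups were 7.83% to 15.4%. H2-Q4 was at 23.9, 32.2, 47.4 and 49.3 CPM in KO untreated libraries, and 46.1, 47.5, 29.0, 31.5 and 35.4 CPM in WT untreated libraries. H2-Q6 was at 12.1, 27.3, 32.3 and 33.4 CPM in KO untreated libraries, and 36.4, 33.6, 16.8, 33.1 and 20.5 CPM in WT untreated libraries. Both overlapped between these groups as well.

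With group means removed, members varied together across libraries in pairs. Pearson's r over the 17 samples was 0.873 for H2-Q6 with H2-Q7, 0.854 for H2-D1 with H2-Q4 and 0.749 for H2-K1 with H2-Q7, as descriptions with no p since the libraries share depth and composition. H2-Q6 transcripts held 19.6% of the 50-base windows of the H2-Q7 transcript. H2-D1 and H2-Q4 both had their highest values in KO CCl4 replicate 3, the library rich in macrophage markers. The part of either in these r values was not tested. Of 7256 genes with a mean of at least 10 CPM, those most like H2-K1 by this measure were Ifi27 (0.822), Gm8325 (0.804), Dcaf1 (0.742), Ly6e (0.723) and Slc39a4 (0.675). Ifi27 is interferon-inducible. Those most like B2m were Gm20319 (0.915), Mcee (0.883), Pdcd2 (0.881), Pmpcb (0.872) and Uqcrb (0.868). KO untreated replicate 1 was the lowest library of its group for 8 of the 10 members.

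Several of these genes share stretches of sequence, and the way the counting treated reads that match several genes is not given in the sources used here. Of the 50-base windows of a representative transcript, the share found in another gene's transcripts was 40.2% for H2-Q7, 39.2% for H2-Q4, 35.0% for H2-Q6, 29.8% for H2-T23 and 22.9% for H2-Q1, and 0% for B2m. H2-K1 had 8.79% at 50 bases and 0% at 100 bases, H2-Q10 8.03% and 2.06%, and H2-D1 14.3% and 4.64%. Levels of the Q genes and H2-T23 are therefore uncertain, to an extent that these shares do not measure. The windows of H2-Q1 were shared most with H2-Q2 (13.9%), then with H2-D1 (7.70%), H2-Q10 (5.72%) and H2-T23 (5.67%). Per kilobase of exon, H2-D1 (181 CPM), H2-Q10 (413) and H2-T23 (64.6) were far above H2-Q1 (1.95). The part of shared reads in the H2-Q1 values was not tested.

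Neighbouring class I genes were uneven between libraries of the same group. H2-Bl, annotated as a polymorphic pseudogene at chr17:36080115-36084223, was at 0.25 and 0.29 CPM in WT CCl4 replicates 2 and 4, and at 0.31 and 1.08 CPM in WT untreated replicates 3 and 5. In the other 13 libraries it was at 5.77 to 31.0 CPM. H2-T10 was lowest in the same 4 libraries, at 0.88 to 2.53 CPM, against 3.84 to 17.6 CPM in the others. H2-Q6 was at 13.0 and 16.8 CPM in those WT CCl4 libraries and at 16.8 and 20.5 CPM in those WT untreated ones, the lowest values of both groups. H2-T22, another T-region gene, was at 74.7, 89.7, 82.1 and 78.7 CPM in them and did not stand apart. The part of strain or haplotype in these values was not tested.

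**Figure D4:**
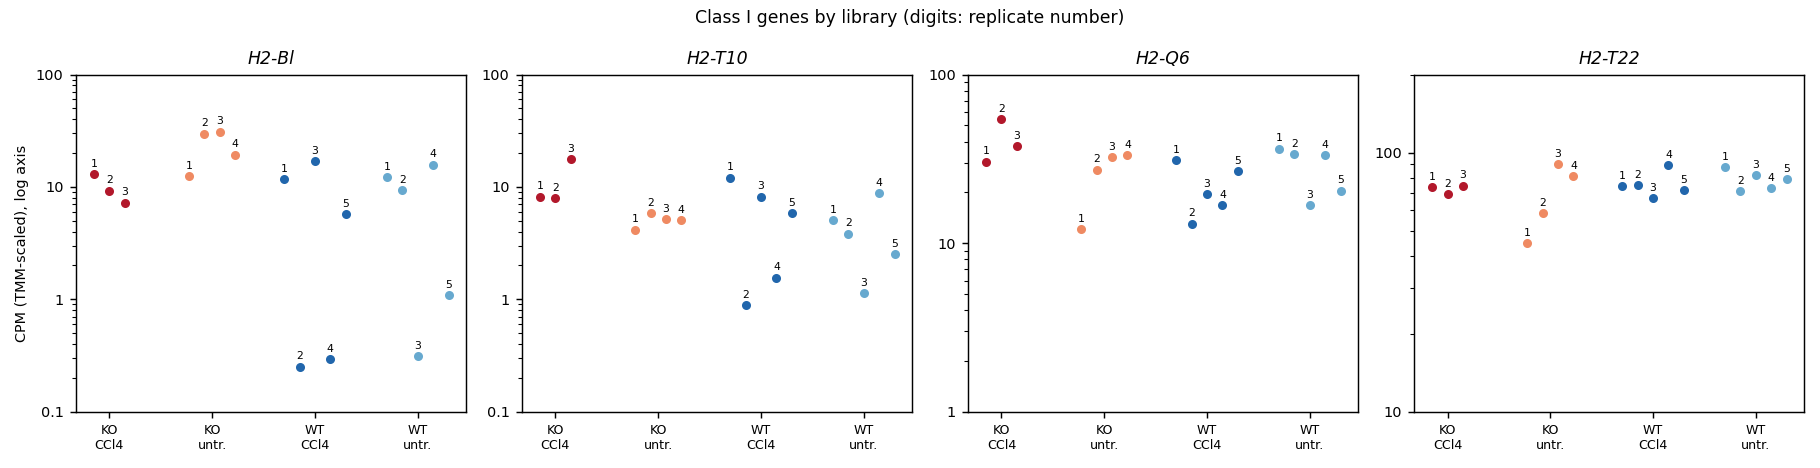
CPM of TMM-scaled libraries on log axes (vertical) for H2-Bl, H2-T10, H2-Q6 and H2-T22, with 1 point for each library and its replicate number beside it. WT CCl4 replicates 2 and 4 and WT untreated replicates 3 and 5 are lowest for H2-Bl and H2-T10, at or under 1.08 and 2.53 CPM, and do not stand apart for H2-T22.

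Of 13 other class I and class I-like genes tested, 1 was called in KO untreated against WT untreated libraries, beside 0.933% of all genes. That gene, Cd1d2, a CD1 lipid-presenting gene annotated as a polymorphic pseudogene, was higher in KO untreated libraries. It was at 6.42 to 11.1 CPM in KO untreated and 0.13 to 1.51 CPM in WT untreated libraries, with a log2 fold change of 4.44 ± 0.77 and an adjusted p of 0.00554. In KO CCl4 against WT CCl4 it was at 5.62 to 7.44 and 0 to 0.94 CPM, with a log2 fold change of 3.92 ± 0.76 and an adjusted p of 0.00397. Cd1d2 lies at chr3:86986551-86989780, on the chromosome of Wwtr1 (chr3:57455649-57575910), 1 of the 2 genes lost in the knockout. The part of Yap/Taz loss, strain or linkage to Wwtr1 in these values was not tested. In KO CCl4 against KO untreated libraries 1 of the 13 was higher, H2-M3 (2.18, adjusted p 0.0364), and 2 were lower, beside 12.1% and 6.96% of all genes. The lower genes were Azgp1 (-0.75, adjusted p 0.0158) and Fcgrt, the neonatal Fc receptor chain that pairs with beta-2-microglobulin (-0.68, adjusted p 0.0355). H2-M3 was no longer called without KO CCl4 replicate 3 (1.10, adjusted p 0.345).

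In KO CCl4 against KO untreated libraries, 1 of 20 peptide-loading and antigen-processing genes was called, beside 19% of all genes. Calr, the chaperone calreticulin, was lower (-0.76 ± 0.21, adjusted p 0.0155) and 19 did not pass, with a median of -0.10 beside 0.01 for all genes. Calr was at -0.65 (adjusted p 0.0773) without KO CCl4 replicate 3, where 1 other gene of the 20 was called lower. Tap1, a subunit of the peptide transporter, averaged 22.3 ± 10.2 CPM in KO CCl4 and 19.0 ± 8.22 CPM in KO untreated libraries. It averaged 19.7 ± 4.50 CPM in WT CCl4 and 18.2 ± 2.95 CPM in WT untreated libraries, so these levels overlapped in every pairing of groups. By edgeR 0 of the 20 passed in WT CCl4 against WT untreated, KO untreated against WT untreated or KO CCl4 against WT CCl4 libraries, where 1, 2 and 1 had an unadjusted p under 0.05. DESeq2 called 0, 0 and 1 of them, beside 494, 328 and 2091 of all genes. Limma voom called 0 in each, beside 78, 121 and 1645 of all genes. In KO untreated against WT untreated libraries 8.77% of all genes had an unadjusted p under 0.05.

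Among 19 regulators of class I transcription, 3 were called in KO CCl4 against KO untreated libraries, beside 19% of all genes. Irf8 (3.90) and Relb (2.26) were higher and Irf2 (-0.82) was lower on the log2 scale. Their adjusted p values were 0.00172, 0.0369 and 0.00708. Without KO CCl4 replicate 3 that of Relb was 0.432, while Irf8 (2.28) and Irf2 (-0.62) still passed. Nlrc5, the class I transactivator, was not called and averaged 13.0 ± 6.29 CPM in KO CCl4 and 13.0 ± 4.74 CPM in KO untreated libraries. Nlrc5 averaged 11.6 ± 7.47 CPM in WT CCl4 and 20.6 ± 9.88 CPM in WT untreated libraries. Of 10 interferon and TNF receptors and kinases, 2 were called, beside the same 19% of all genes. Ifngr1 (2.09, adjusted p 0.000866) and Tnfrsf1a (0.58, adjusted p 0.0303) were higher. Tnfrsf1a was at 0.59 (adjusted p 0.0721) without KO CCl4 replicate 3, Ifngr1 (1.53) still passed, and 1 other gene of the 10 was then called lower. Of 28 interferon-stimulated genes, 3 were higher, Gbp2 (3.41), Ifit2 (2.90) and Cxcl10 (2.61), a share near the 12.1% of all genes called higher. On leaving out KO CCl4 replicate 3, 0 of the 28 were called by edgeR, beside 1666 of all genes. The log2 fold changes were then 1.76, 2.02 and 1.19 for Gbp2, Ifit2 and Cxcl10. Limma voom called 0 of the 28 with all libraries, beside 2239 of all genes. Of the 2 NKG2D ligands tested, Raet1d was higher (1.54, adjusted p 0.00703).

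In WT CCl4 against WT untreated libraries, 0 of the 98 genes tested in these lists passed by edgeR, beside 0.853% of all genes. Of the 98, 9 had an unadjusted p under 0.05, with no share of all genes to set beside it. Limma voom called 0 of the 98, beside 78 of all genes, and DESeq2 called 2, beside 494 of all genes. Those 2 were the NKG2D ligands Raet1d and Raet1e. In KO CCl4 against WT CCl4 libraries 11 of the 98 genes passed, a share near the 11.8% of all genes. They were the 6 class II genes and Irf8, Ifngr1, Tnfrsf1a, H2-M3 and Cd1d2. Without KO CCl4 replicate 3, Cd1d2 (3.98) and the class II genes H2-Aa (2.56, against 5.56 with it) and H2-Ab1 (3.09, against 5.88 with it) still passed. Without that library 418 of all genes passed, against 1622 with it. Irf8 was then at 1.11 (2.72 with that library), Ifngr1 at 0.98 (1.54) and H2-M3 at 1.00 (2.08), whereas Tnfrsf1a had the same log2 fold change of 0.57 with and without it and an adjusted p of 0.129 without it. In the difference of the CCl4 effects 4 of 6 class II genes passed and 0 of the other lists by edgeR, beside 1.09% of all genes. For this difference DESeq2 called 5 class II genes, 2 regulators and 2 receptors, beside 783 of all genes. Limma voom called 0, beside 9 of all genes.

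MHC class II genes, which mark antigen-presenting cells, rose in KO CCl4 against KO untreated libraries in 6 of 6 tested by edgeR, with a median log2 fold change of 7.07. Limma voom called 2 of these 6. Over all these lists limma voom called 10 of 98 genes where edgeR called 19. Of all genes, limma voom called 2239 and edgeR 2610 (19%). The class II list summed to 27.7 to 813 CPM in KO CCl4 and 1.67 to 4.02 CPM in KO untreated libraries, and to 2.00 to 12.0 CPM in WT CCl4 and 0.879 to 7.59 CPM in WT untreated libraries. The 813 CPM were in the library rich in macrophage markers, and without it 5 of 6 still passed, beside 1666 of all genes. Pan-leukocyte markers summed to 16.7 to 476 CPM in KO CCl4 and 0.257 to 0.879 CPM in KO untreated libraries, with 6 of 6 detected in each KO CCl4 library. Endothelial markers summed to 105 to 748 CPM in KO CCl4 and 20.5 to 40.0 CPM in KO untreated libraries, and stellate and fibroblast markers to 85.0 to 275 CPM in KO CCl4 and 7.64 to 11.4 CPM in KO untreated libraries. The sums of both lists in wild-type libraries, given above beside H2-Q1, also reached higher values in WT CCl4 than in WT untreated libraries. The part of these cells' RNA in the values of H2-D1, H2-Q4, H2-Q6 and the companion genes was not tested. H2-K1 was at 755.6, 677.4 and 663.9 CPM in the KO CCl4 libraries whose macrophage sums were 109, 287 and 5074 CPM.

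**Figure D5:**
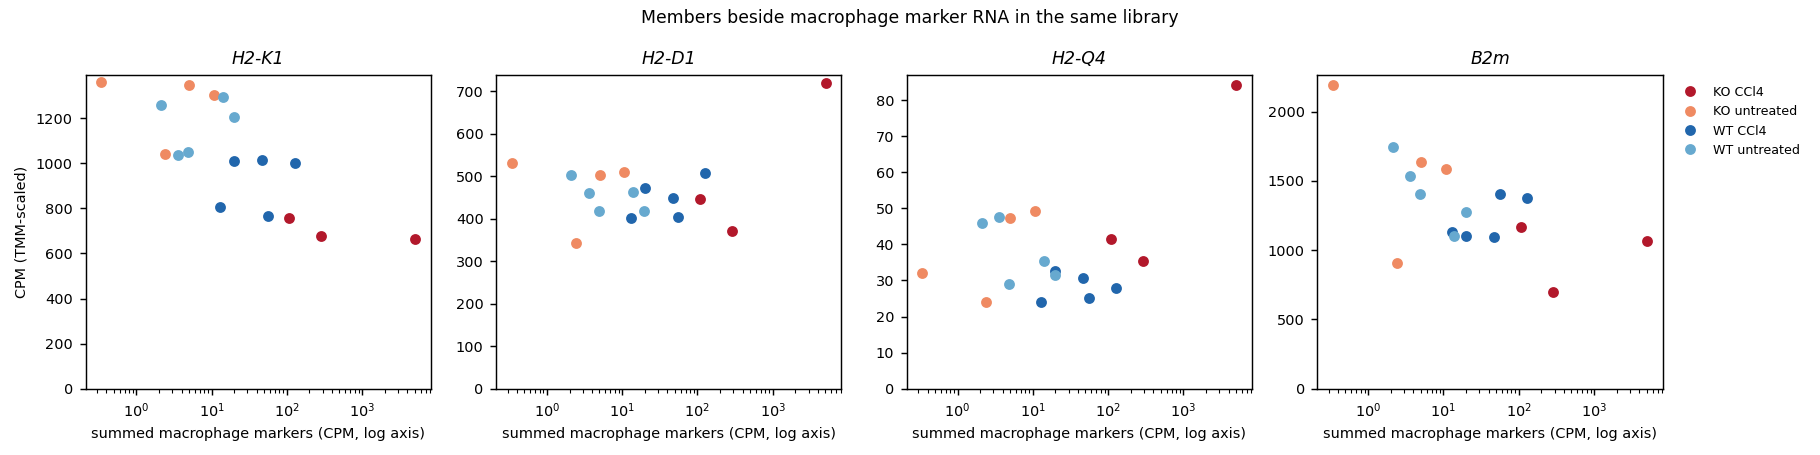
CPM of H2-K1, H2-D1, H2-Q4 and B2m (vertical axes, from 0) beside the summed CPM of 16 macrophage markers (horizontal, log axis), with 1 point for each library, coloured by group. The KO CCl4 library at 5074 CPM of markers has the highest H2-D1 (720.5 CPM) and H2-Q4 (84.1 CPM) and the lowest H2-K1 (663.9 CPM).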

How the data were processed

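The deposited file is a count table, with a row for each gene and a column for each sample, that the authors had not normalized. Per the submitters' processing notes, STAR 2.4.1d, FastQC, DESeq2, edgeR, limma and mm10 were used. The counting tool, its use of strand and the gene models are not given in the sources used. Per the labels, a Qiagen MicroRNEasy kit and the NEBNext Ultra II library kit were used. Symbols were matched for 22914 of 23461 identifiers.

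All 17 samples were fitted together in edgeR 4.0.16 (R 4.3.3) with a mean per group, after filterByExpr (minimum count 10, minimum total 15) and TMM scaling. The robust quasi-likelihood F test was used with Benjamini-Hochberg (BH) adjustment over 13721 genes, with 0.05 as the threshold. The fit was tested on simulated counts. Where no tool is named, an adjusted p is edgeR's. Errors are standard errors of log2 fold changes or SDs of CPM, counts scaled to library size by TMM. Marker sums add the same TMM-scaled CPM. Alternatives were RLE scaling, unscaled totals, no filter, DESeq2 1.42.0, limma voom 3.58.1, only the groups compared, a replicate block and left-out libraries. Replicate columns differed beyond sampling noise (lowest chi-square per gene 23.4 over 29 pairs).

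Members, gene lists and tests were chosen with earlier results of these data known. Named genes were all 10 members, list members called where 4 or fewer were called in a list, list members of smallest adjusted p, and the 5 genes most like H2-K1 and B2m (0.5 CPM added before log2). H2-Bl, H2-T10, H2-T22, Tap1 and Nlrc5 were named after their values were seen. Protein sequences were not used here.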

Additional observations from a re-analysis of the deposited data

Results flagged for a closer look

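H2-D1 was at 342.2 CPM in KO untreated replicate 1, against 502.4 to 531.6 CPM in the other 3 libraries of its group, a gap large for the range of the group by Dixon's test. The scan covered 30 sets of 4 or 5 libraries (10 genes in each of 3 groups) and this was the 1 past the critical value, where chance gives about 1 in 20. The same library was the lowest of its group for 8 of the 10 genes.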

How the results depend on the processing

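Across 25 other settings (17 leaving out 1 library), 1216 of 1240 member values kept direction or stayed uncalled on the same side of the threshold, 20 lost a call, 4 gained one and 0 reversed; 72 uncalled values changed sign. H2-K1 in KO CCl4 against KO untreated (-0.94 to -0.65) and H2-Q1 in KO CCl4 against WT CCl4 passed in all 25. The members called in KO CCl4 against WT CCl4 (2) became 1 with unscaled totals, limma voom, only the groups compared or the replicate block, as H2-Q4 was lost. The same held with both libraries of highest mitochondrial share left out. With DESeq2 they became 3, as H2-K1 was gained. DESeq2 also raised the members called for the difference of CCl4 effects (0) to 1. Leaving out 1 library gave 1 to 2 in KO CCl4 against KO untreated, 0 to 1 in WT CCl4 against WT untreated and 1 to 2 in KO CCl4 against WT CCl4. The cause was not tested. Uncalled member values in WT CCl4 against WT untreated, other than those of H2-Q4 and H2-Q6, turned positive with unscaled totals, which shifted the all-gene median by 0.39, by 0.19 in KO CCl4 against KO untreated, by 0.15 in KO untreated against WT untreated and by -0.20 in the difference of effects. They moved the share of calls that were higher to 94.8%, 83.6%, 74.2% and 60.7% in WT CCl4, KO CCl4, KO untreated and the difference of effects, against 67.5%, 63.4%, 62.5% and 72.7%.

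All genes called in WT CCl4 against WT untreated (117) were 651 with unscaled totals, 494 with DESeq2, 187 without both libraries of highest mitochondrial share and 63 to 179 on leaving out 1 library. In KO untreated against WT untreated (128) they were 328 with DESeq2. In KO CCl4 against KO untreated (2610) they were 1273 with only the groups compared and 1666 to 3079 on leaving out 1 library. In KO CCl4 against WT CCl4 (1622) they were 555 without both libraries and 418 to 2216 on leaving out 1. For the difference of effects (150) they were 28 with unscaled totals, 33 with no filter, 783 with DESeq2, 9 with limma voom, 9 without both libraries and 0 to 867 on leaving out 1.

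The labels say that replicate numbers pair no samples, and residuals of same-numbered samples correlated at -0.25 to 0.23. With the replicate block, members called in WT CCl4 against WT untreated were 0 (H2-Q1 adjusted p 0.104), and in KO CCl4 against WT CCl4 1; all genes called were 49 in WT CCl4 against WT untreated, 867 in KO CCl4 against WT CCl4 and 3 for the difference of effects.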
